A study of Rattus norvegicus with 3 samples.

Results

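Nuclei that held RNA of both Enpp6 and Bcas1 were examined in single-nucleus RNA-seq of injured rat spinal cord. A nucleus was taken when it had at least 1 unique molecular identifier (UMI, the count of 1 captured RNA molecule) of Enpp6 and at least 1 of Bcas1. It could hold UMIs of at most 1 of 8 genes of other lineages: Itgam and Csf1r (myeloid), Flt1 and Mecom (endothelial), Col1a1 and Col3a1 (fibroblast), and Snap25 and Snhg11 (neuronal). This rule gave 178 of the 5326 nuclei in all. The rats were wild-type Sprague Dawley animals (SDrat in the labels), 17 weeks old, and the tissue was the epicenter of the lesion, taken 49 days after spinal cord injury. There was 1 library in each of 3 groups: injured cord with no treatment (untreated), cord that received a scaffold (scaffold), and cord whose implant released HGF, hepatocyte growth factor (HGF scaffold). Both implants had been in place for 7 days, and all 3 groups share the injury. The number of rats behind each library is not in the labels. The untreated library gave 109 of these nuclei from 2252, the scaffold library 42 from 2168 and the HGF scaffold library 27 from 906.

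Oligodendrocytes make the myelin of the central nervous system and arise from precursor cells that carry the PDGF receptor Pdgfra and the proteoglycan Cspg4. When a precursor stops dividing it passes through a short stage, before it wraps axons, in which Enpp6, a choline-specific phosphodiesterase, and Bcas1, a protein of early myelinating cells, are typically high. The kinase Fyn and the focal adhesion protein Tns3 are known for the same step, and Mog and Mobp, proteins of compact myelin and its outer surface, come on later. Such cells have been used as a sign of new oligodendrocyte formation in injured cord.

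The nuclei were only partly what these marker genes describe. Of the 178, 144 held more of 8 mature markers (Mog, Mobp, Mag, Mal, Opalin, Ermn, Cldn11 and Aspa) than of 7 precursor markers (Pdgfra, Cspg4, Vcan, Ptprz1, Tnr, Pcdh15 and Sox6). A further 25 held more precursor markers, and 9 held as many of each. Mog and Mobp were both found in 86 nuclei (48.3%), and 138 (77.5%) had at least 1 of them. Gpr17, a receptor of newly committed cells, had no UMI in any of the 178, which allows a share of up to 1.69% of nuclei with a UMI when 3 counts are taken as the floor, and Nkx2-2, a transcription factor of the same step, had 1 UMI. Why Gpr17 and Nkx2-2 had so few UMIs was not tested. Tns3 was found in 132 nuclei and Fyn in 99. They are therefore called the Enpp6 and Bcas1 nuclei here, by the rule, and not newly forming oligodendrocytes. The nuclei as chosen had a median of 2593 UMIs in the untreated, 2162 in the scaffold and 1263 in the HGF scaffold library, against 1407.5, 1639 and 1047 for all nuclei of those libraries. No barcode was shared between libraries among them.

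**Figure D1:**
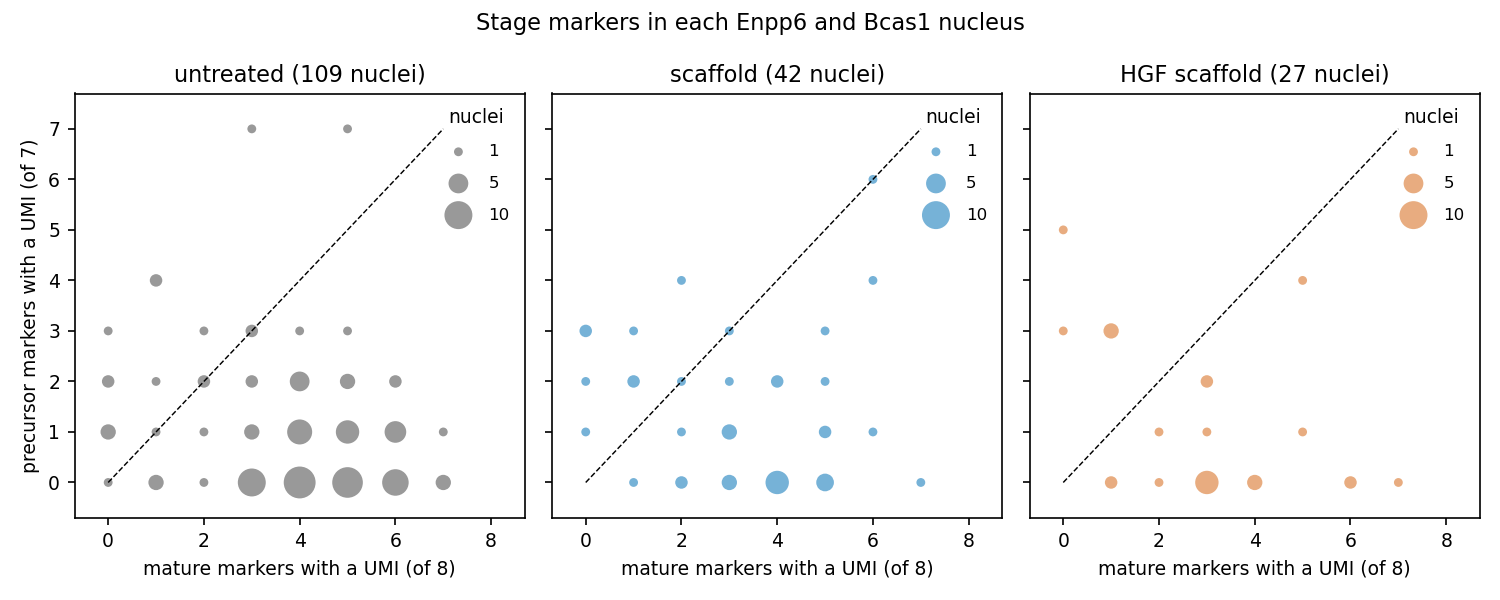
Each circle gives the number of Enpp6 and Bcas1 nuclei (circle area) with that number of mature markers (x axis, of 8) and precursor markers (y axis, of 7) carrying a UMI, with 1 panel per library. Nuclei below the dashed line of equal numbers, 144 of 178, hold more mature markers.

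The 2 genes of the rule set the members and are given as description only. Enpp6 stood at 922 CPM (counts per 1000000 UMIs of the summed nuclei) in the untreated, 818 in the scaffold and 1044 in the HGF scaffold members, and Bcas1 at 3257, 3527 and 5635. Of the 178 nuclei, 87 had a single UMI of Enpp6, and 16 had a single UMI of each gene. The limit on other lineages left out 364 of the 542 nuclei with both genes. Of the members, 65 held none of the 8 limiting genes and 113 held 1. Just outside were 106 nuclei with 2 of them: Mbp, the myelin basic protein, was at 4276 CPM there and at 5759 in the members with 1. Oligodendrocyte genes also gave UMIs in nuclei of another type. Nuclei with both Itgam and Csf1r are myeloid and number 734, with a median of 3136 UMIs. They had Mbp in 72.5%, Bcas1 in 48.6% and Enpp6 in 17.3%. Tns3 was found in 89.5% of these myeloid nuclei and Fyn in 79.0%, at 1201 and 791 CPM. In the members, with a median of 2228 UMIs, Tns3 was found in 74.2% and Fyn in 55.6%. Their levels there were 1257 and 1255 CPM.

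A gene outside the rule divided the 178 nuclei. Frmd4a, a FERM-domain scaffold protein of cell polarity, made up 1% or more of all UMIs in 30 nuclei and had no UMI in 81. The median nucleus had 0.0293% of its UMIs in Frmd4a and the highest 10.3%. The cut of 1% was chosen after the values were seen. Between 0.5% and 2% lay 6 nuclei: 1 untreated, 1 scaffold and 4 of the 27 HGF scaffold members. The 30 nuclei came from all libraries: 16 of 109 in the untreated (14.7%, exact 95% binomial interval 8.63 to 22.7%), 7 of 42 in the scaffold (16.7%, 6.97 to 31.4%) and 7 of 27 in the HGF scaffold library (25.9%, 11.1 to 46.3%). These intervals overlap, and like all intervals here they cover counting error only. Among precursor nuclei, 0 of 36 reached 1% (up to 8.33% by the same floor), and among mature nuclei 1 of 96 did. In all 5326 nuclei 80 reached 1%: 30 members, 30 nuclei with both Enpp6 and Bcas1 that the limit left out, 3 with Enpp6 and no Bcas1, and 17 without Enpp6.

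**Figure D2:**
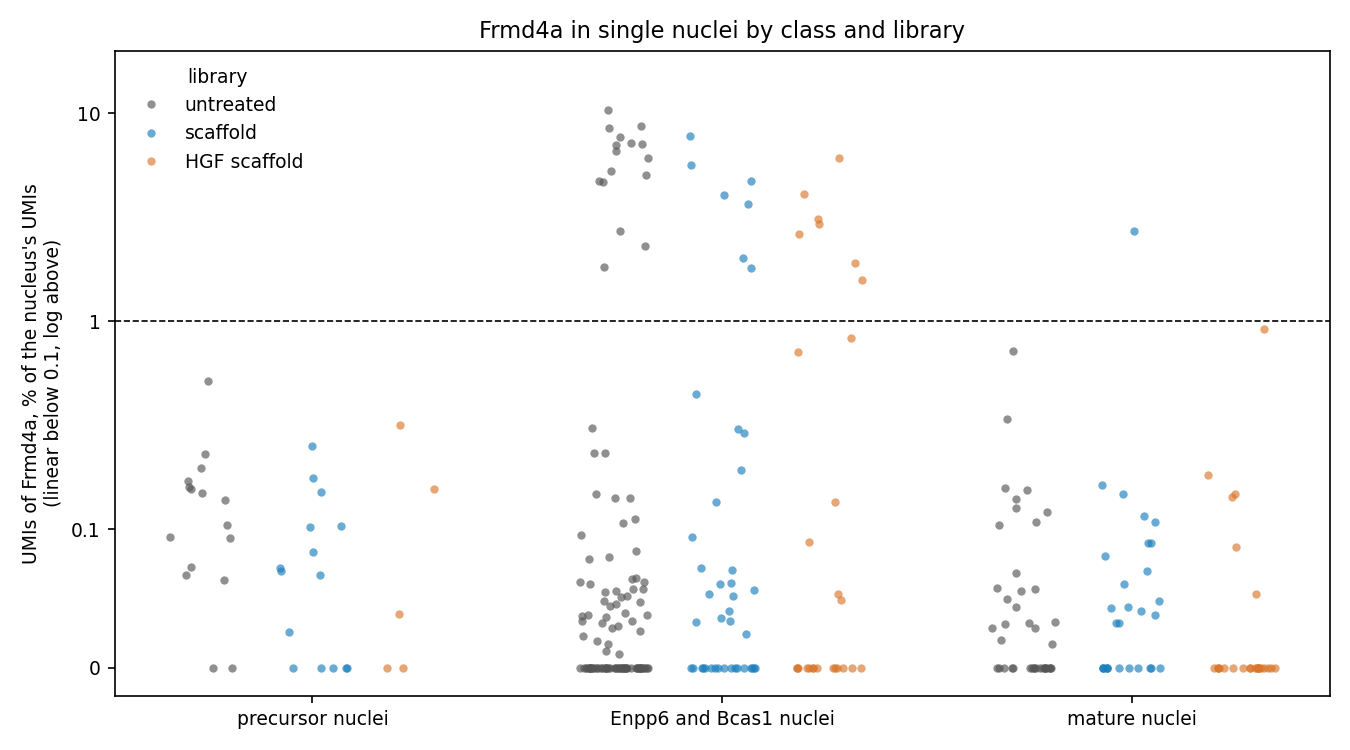
Share of each nucleus's UMIs that come from Frmd4a (y axis in percent, linear below 0.1 and logarithmic above) in precursor nuclei, Enpp6 and Bcas1 nuclei and mature nuclei of each library, with 1 point per nucleus. The dashed line marks 1%, which 30 of 178 Enpp6 and Bcas1 nuclei, 0 of 36 precursor and 1 of 96 mature nuclei reach.

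Fyn and Tns3 followed Frmd4a. In the nuclei with 1% or more of Frmd4a, Fyn was at 7287 CPM in the untreated, 3635 in the scaffold and 4242 in the HGF scaffold library, and at 399, 966 and 581 in the other members. All 3 libraries were higher on the Frmd4a side, and the pooled ratio was 10.9 (95% interval 9.20 to 13.0). Those 30 nuclei held 373 of the members' 583 UMIs of Fyn but 64955 of their 464663 UMIs in all. Tns3 was at 5959, 3635 and 3602 CPM against 590, 854 and 929, a ratio of 7.36 (6.23 to 8.69). Tcf7l2, the Wnt pathway transcription factor that is known to be transient in differentiating oligodendrocytes, was at 1073, 469 and 961 against 23.9, 12.4 and 116. Its ratio was 32.4 (16.9 to 68.6). Itpr2, a calcium release channel used as a marker of early oligodendrocytes, differed less, at 1570 against 600 CPM over all libraries. The groups of 3 libraries did not overlap for Fyn, Tns3, Tcf7l2 or Itpr2. These splits were made on the same nuclei and carry no test.

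Of 15 genes of newly forming oligodendrocytes with at least 20 UMIs in the members, 13 had a ratio whose interval lay above 1 and none lay below. Among all 4002 genes measured this way, the interval lay above 1 for 8.7% and below 1 for 14.1%. The other members of that list with high ratios were the small GTPase Rras2 (3618 against 190 CPM), the signalling scaffold Cnksr3 (2710 against 380) and the calcium-sensing receptor Casr (354 against 30.0). Of the late oligodendrocyte genes none of 17 lay above 1 and 10 lay below. Transferrin, Tf, the iron carrier of mature oligodendrocytes, was at 141, 235 and 640 CPM in the 30 nuclei of the 3 libraries and at 1180, 1362 and 1200 in the rest. Apod, an apolipoprotein, was at 308 against 1524, and Hapln2, a matrix link protein of the node of Ranvier, at 77.0 against 445. For these 3 genes, too, the library values of the 2 sides did not overlap.

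Myelin genes fell into separate sets. Mbp was at 7146, 5277 and 6243 CPM in the nuclei rich in Frmd4a and at 5953, 5572 and 5612 in the others, and these values overlap (ratio 1.11, interval 0.996 to 1.23). Mag, which sits at the axon-facing membrane, had a ratio of 0.806 (0.580 to 1.10). Mog, of the outermost membrane, was lower at 169 against 731 CPM, and Mobp at 262 against 986. Mog overlapped between the libraries of both sides, since it was at 400 in the HGF scaffold nuclei rich in Frmd4a and at 310 in the others. Plekhh1 was lower at 477 against 2189. Nfasc, the neurofascin that holds glial and axonal membranes together at the node, was higher, at 13698, 7739 and 10726 against 1143, 892 and 1509. Myrf, the transcription factor that switches on myelin genes, was at 323 against 180 CPM (ratio 1.79, 1.05 to 2.95).

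Of 10 precursor genes measured, 4 had an interval above 1 in the 30 nuclei (Vcan, Sox6, Tnr and Sema5a) and 2 below (Dscam and Lrrtm3). Over all genes 8.7% lay above 1 and 14.1% below. The median log2 ratio of the precursor genes was 0.46 against -0.24 over all genes. Ptprz1 and Pcdh15, which stood at 2194 and 1282 CPM in precursor nuclei, were at 139 and 30.8. Vcan, a proteoglycan of precursors, was at 431 in the 30 nuclei, 135 in the other members and 1576 in precursor nuclei. Sox6, a transcription factor of precursors, was at 1386 in the 30 nuclei, 158 in the other members and 2147 in precursor nuclei. Tnr, the matrix protein tenascin-R, was at 1062, 57.5 and 850 in the same order. Precursor nuclei were chosen in part by Tnr, so its value in them is description only. The 30 nuclei had a median of 2 precursor and 2 mature markers, and the other 148 a median of 0 and 4. Their median depth was 1661.5 UMIs against 2283.5.

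**Figure D3:**
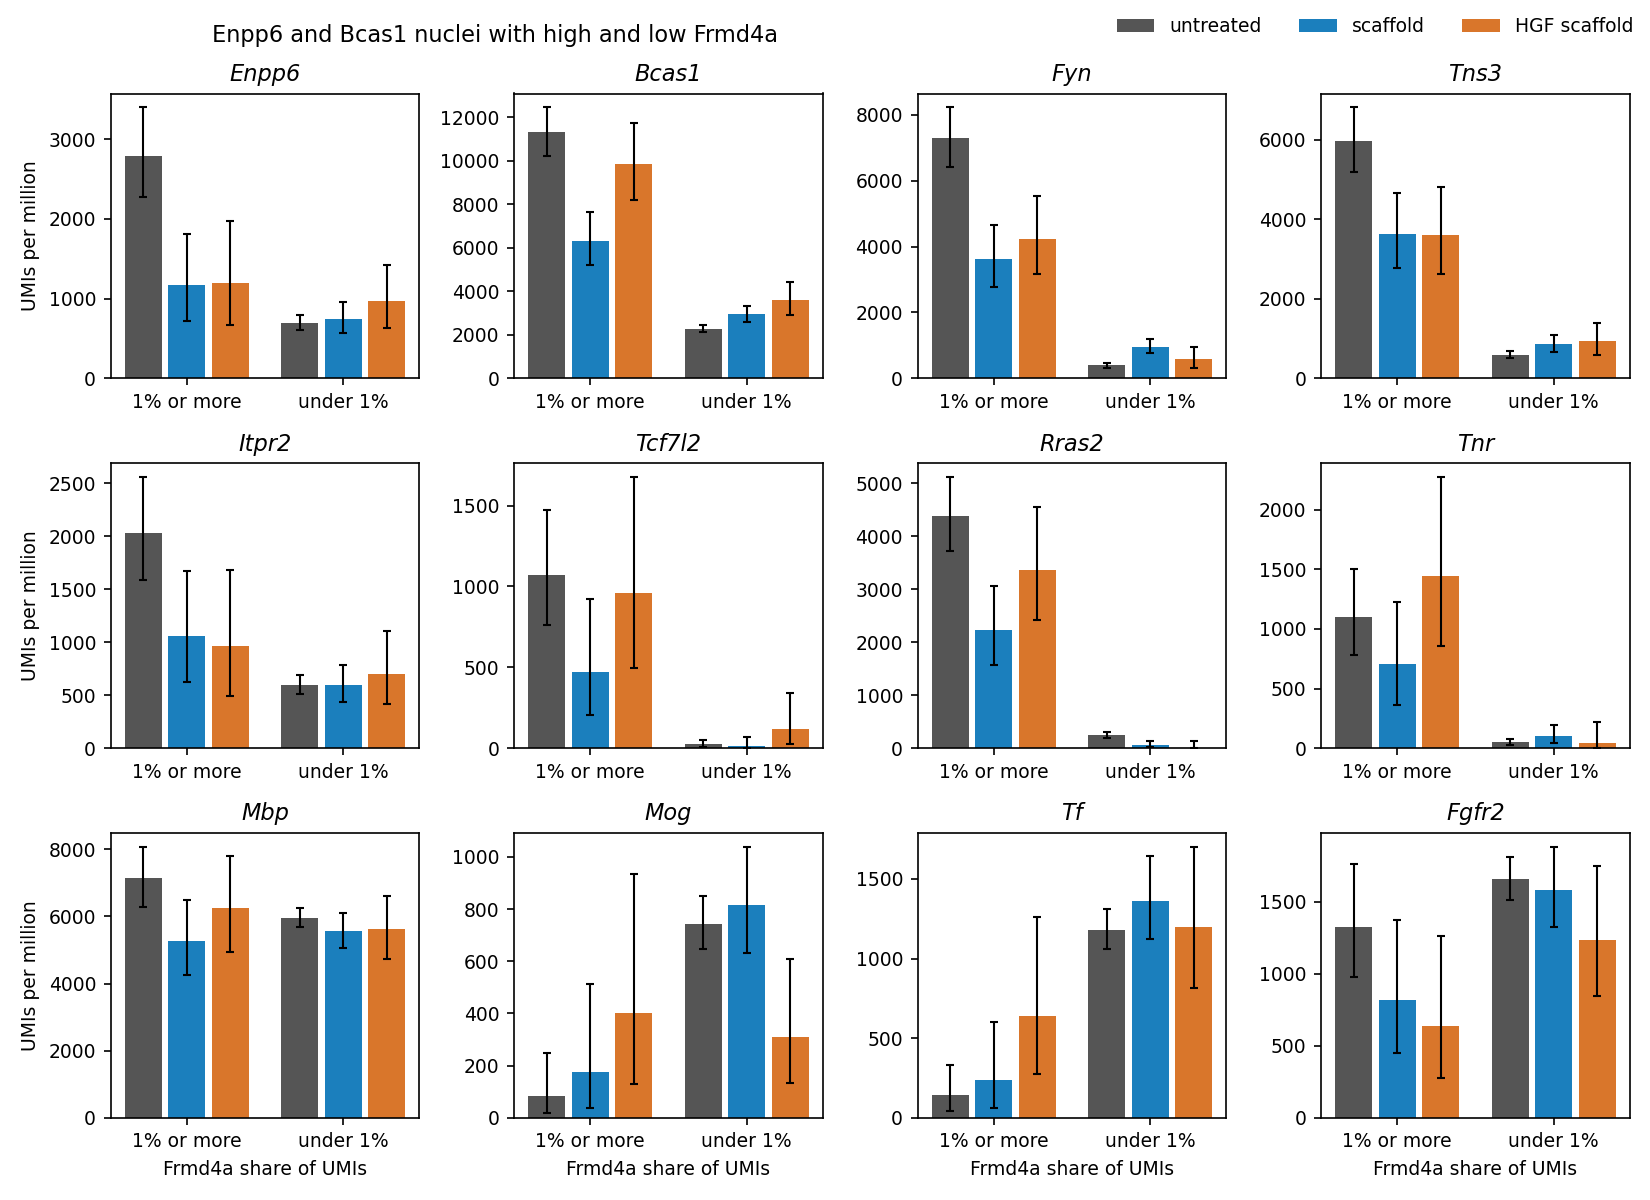
CPM (y axis, from 0) of 12 genes in Enpp6 and Bcas1 nuclei with 1% or more of their UMIs in Frmd4a and in those with less, by library. Bars are summed UMIs over the summed depth and error bars exact 95% Poisson intervals. Enpp6 and Bcas1 are genes of the rule and are drawn as description. Fyn, Tns3, Tcf7l2, Rras2 and Tnr are higher on the left in each library, Tf is lower, and Mbp lies between 5277 and 7146 on both sides.

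The genes that differed most between the nuclei rich in Frmd4a and the others were ranked by the bound of the ratio's interval nearest to 1, after the values were seen. Lsamp, an IgLON adhesion protein, was at 14404, 11023 and 9765 CPM in the untreated, scaffold and HGF scaffold library, against 638, 953 and 1084 in the other members. Kirrel3, an immunoglobulin-type adhesion protein, was at 10407 against 648 over all libraries. Opcml, another IgLON protein, was at 5712 against 398, and the guidance molecule Sema5a at 2017 against 95.1. Of the 27 adhesion and guidance genes measured, 11 had an interval above 1 and 5 below, with a median log2 ratio of 0.04. Over all genes measured the interval lay above 1 for 8.7% and below 1 for 14.1%. The other leading genes were Sez6l, Palm2, Slc1a1, Csmd1, Tns1, Pdcd4, Dock6 and Dpp10, each higher on this side in all 3 libraries. On the other side stood Slc24a2, a sodium, calcium and potassium exchanger, at 4153 against 508 CPM. The scaffold proteins Dlg2 (2765 against 308) and Magi2 (9319 against 1693) went the same way, as did Kcna6, Mapk10, Pak1, St6galnac3 and Prickle2.

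Enpp6 chose the nuclei and Frmd4a divided them, so the sequence before the start of each gene is shown, 250 bases on the minus strand of the RefSeq build GRCr8. Capitals mark a match to the SOX motif, searched as ACAAAG or ACAATG on both strands. Enpp6 lies before its start at chr16:52026729-52026978 and Frmd4a at chr17:78855877-78856126.
Enpp6: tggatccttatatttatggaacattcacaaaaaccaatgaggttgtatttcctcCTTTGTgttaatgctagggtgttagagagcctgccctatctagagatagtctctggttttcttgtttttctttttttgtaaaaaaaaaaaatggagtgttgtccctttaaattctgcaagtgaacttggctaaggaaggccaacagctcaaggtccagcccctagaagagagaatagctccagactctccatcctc
Frmd4a: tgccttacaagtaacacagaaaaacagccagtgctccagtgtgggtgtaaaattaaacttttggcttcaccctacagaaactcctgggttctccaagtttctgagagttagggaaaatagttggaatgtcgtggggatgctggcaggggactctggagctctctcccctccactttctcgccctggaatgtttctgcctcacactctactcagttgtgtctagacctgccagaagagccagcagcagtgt
Enpp6 held 1 match and Frmd4a none. In the table as a whole 24.8% of 27457 promoters of this length held a SOX match. Of the genes that were higher in these nuclei than in mature nuclei, taken with Enpp6 and Bcas1, 39 of 50 had an entry and 9 of them (23.1%) held one.

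To place the 178 nuclei on the lineage, their summed UMIs in each library were set against those of 2 other classes that held no Enpp6 and met the same limit. The precursor class had Pdgfra and at least 1 of Tnr and Cspg4, and gave 16, 15 and 5 nuclei in the untreated, scaffold and HGF scaffold library. The mature class had Mog and Mobp, and gave 41, 29 and 26 nuclei. Each test compared 3 pairs of sums with library as a block (edgeR's quasi-likelihood test, Benjamini-Hochberg adjustment over all genes tested, threshold 0.05). Genes used in any of the rules were kept out of the counts. Against precursor nuclei 757 genes were tested, and 273 differed (36.1%), 138 higher (18.2%) and 135 lower (17.8%). Of these, 137 and 130 differed the same way in all 3 libraries. Against mature nuclei 1864 genes were tested, and 87 differed (4.67%), 48 higher (2.58%) and 39 lower (2.09%), 44 and 35 of them the same way in all libraries. The counts against mature nuclei depended on the setting: 7 higher and 1 lower passed with no library block, 7 and 2 with DESeq2, 6 and 5 without the untreated library and 10 and 7 without the HGF scaffold library. Against precursor nuclei 89 higher and 101 lower passed without the untreated library.

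Myelin and late oligodendrocyte genes were higher than in precursor nuclei. Of 8 myelin genes tested, 6 rose and none fell, while over all genes tested 18.2% rose and 17.8% fell. Mbp was at 6082, 5521 and 5818 CPM in the 3 libraries and at 939, 236 and 0 in precursor nuclei, which did not overlap (log2 difference 3.73 ± 0.59 SE, adjusted p = 4.6e-06). Mag rose by 2.69 ± 0.57 and Plekhh1 by 3.94 ± 0.61. Of 7 late genes tested, 5 rose: Tf by 4.37 ± 0.68, and Hapln2 was at 394 CPM against 0 UMIs in precursor nuclei, at least 8.5-fold higher when 3 UMIs over the class are taken as the floor. St18, a zinc finger transcription factor, rose by 4.23 ± 0.69, the FGF receptor Fgfr2 by 4.11 ± 0.65, the thyroid hormone receptor Thrb by 2.41 ± 0.56 and Fa2h, the enzyme that hydroxylates myelin lipids, by 2.44 ± 0.54. Of the 12 genes of process growth and cytoskeleton tested, 4 rose, Fnbp1 by 4.05 ± 0.62 and Stmn4 by 3.67 ± 0.76 among them.

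All 8 precursor genes tested were lower, while over all genes tested 17.8% were lower and 18.2% higher. Ptprz1, a receptor phosphatase, was at 67.0, 61.3 and 209 CPM against 2405, 1721 and 3178, a fall that left no overlap (log2 difference -4.85 ± 0.51, adjusted p = 3.8e-09). Pcdh15 (-4.90 ± 0.51), Vcan (-3.02 ± 0.50) and Sox6 (-2.57 ± 0.46) also fell. Of 13 channel and receptor genes, 7 fell and 6 rose. The AMPA receptor subunit Gria4 (-4.85 ± 0.51) and the potassium channel Kcnd2 (-4.63 ± 0.49) fell, while the glutamate receptor Grm3 rose by 3.33 ± 0.61. Of 14 adhesion and guidance genes 9 fell and 2 rose. Dcc, the netrin receptor (-4.56 ± 0.52), and Sema3d (-3.72 ± 0.49) were among those that fell. The neurotrophin receptors Ntrk2 (-4.21 ± 0.50) and Ntrk3 (-4.17 ± 0.44) fell. The list medians were -4.61 for precursor genes and 2.62 for myelin genes, against 0.06 over all genes tested.

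Fyn, Tns3 and Itpr2, genes of the early stage, did not pass the threshold against precursor nuclei. With 36 precursor nuclei in all, moderate differences could be missed. Fyn was at 1142, 1431 and 1774 CPM against 1766, 608 and 824 in precursor nuclei, values that overlap (log2 difference 0.30 ± 0.47, adjusted p = 0.69). Tns3 had a difference of 0.59 ± 0.47 (adjusted p = 0.38) and Itpr2 of -0.22 ± 0.43 (adjusted p = 0.76). With a wider precursor class, defined by at least 3 of the 7 precursor markers and no Mog, Fyn had a log2 difference of -0.68 (adjusted p = 0.045). Of 8 early genes tested 2 rose, Rras2 by 2.60 ± 0.57 and Cnksr3 by 2.08 ± 0.51, beside 18.2% of all genes. Bcas1, part of the rule, was at 3510 CPM against 5777 in precursor nuclei.

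Set against mature nuclei, 4 of 10 early genes tested were higher, and no myelin gene was. Over all genes tested in this comparison, 2.58% were higher and 2.09% lower. Frmd4a was at 6992, 6778 and 9418 CPM against 710, 1313 and 593, with no overlap (log2 difference 3.10 ± 0.19, adjusted p = 1.2e-54). Fyn rose by 1.40 ± 0.23 (adjusted p = 1.5e-07), and stood at 443, 491 and 725 CPM in mature nuclei. Of 12 alternative settings, not counting that with no library block, Frmd4a and Fyn passed in 10 each, Tns3 in 6 and Itpr2 in 3. Frmd4a fell short in members with Mog and Mobp (0.91, edgeR adjusted p = 0.50). Of 10 early genes tested 4 rose: Fyn, Tns3 (0.90 ± 0.22), Itpr2 (0.86 ± 0.26) and Cnksr3 (1.23 ± 0.28). Mbp differed by 0.14 ± 0.16 (adjusted p = 0.86) and Mag by -0.02 ± 0.23. Of 12 myelin genes none rose and 1 fell, Opalin, a membrane glycoprotein of late oligodendrocytes (-1.25 ± 0.34, adjusted p = 0.011). Of 11 late genes 3 fell, the prostaglandin synthase Ptgds (-1.01 ± 0.28), Grm3 (-0.99 ± 0.20) and the septin Sept4 (-0.79 ± 0.24). Of 19 process and cytoskeleton genes 4 rose, Map1b, a microtubule-binding protein of growing processes (0.94 ± 0.27), and Dock6, a Rac and Cdc42 activator (1.58 ± 0.48), beside Fyn and Tns3. Sox6, alone of 6 precursor genes tested, was higher (1.22 ± 0.32, adjusted p = 0.0064). The glutamate receptor Grm7 (-2.02 ± 0.29), the channel gene Ano4 (-0.64 ± 0.17) and the neuregulin receptor Erbb4 (-0.85 ± 0.19) were lower.

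Fyn and Tns3 in that comparison went with the 30 nuclei rich in Frmd4a. Without these nuclei, in a setting added after the data were seen, Fyn differed from mature nuclei by 0.19 (edgeR adjusted p = 0.87). Tns3 then differed by 0.0070 (adjusted p = 0.996). Itpr2 and Cnksr3 kept a part of their difference, 0.56 (adjusted p = 0.34) and 0.36 (adjusted p = 0.71). In members that held Mog and Mobp, as the mature class does, Fyn differed by -0.00063 and Tns3 by -0.050. Itpr2 differed there by 0.31 and Cnksr3 by 0.71. Other genes passed with and without the 30 nuclei. Clstn2, a calsyntenin, was higher by 1.67 ± 0.31 in all members, by 1.84 without the 30 nuclei and by 1.76 in those with Mog and Mobp. The flippase Atp10a was higher by 1.17 ± 0.28, 1.37 and 1.36 in the same order. Trpm3, an ion channel, was lower, with differences of -1.89 ± 0.21, -1.77 and -2.44, and Grm7 with -2.02 ± 0.29, -2.68 and -3.03. Each of these 4 genes passed the edgeR threshold of 0.05 in all 3 settings.

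**Figure D4:**
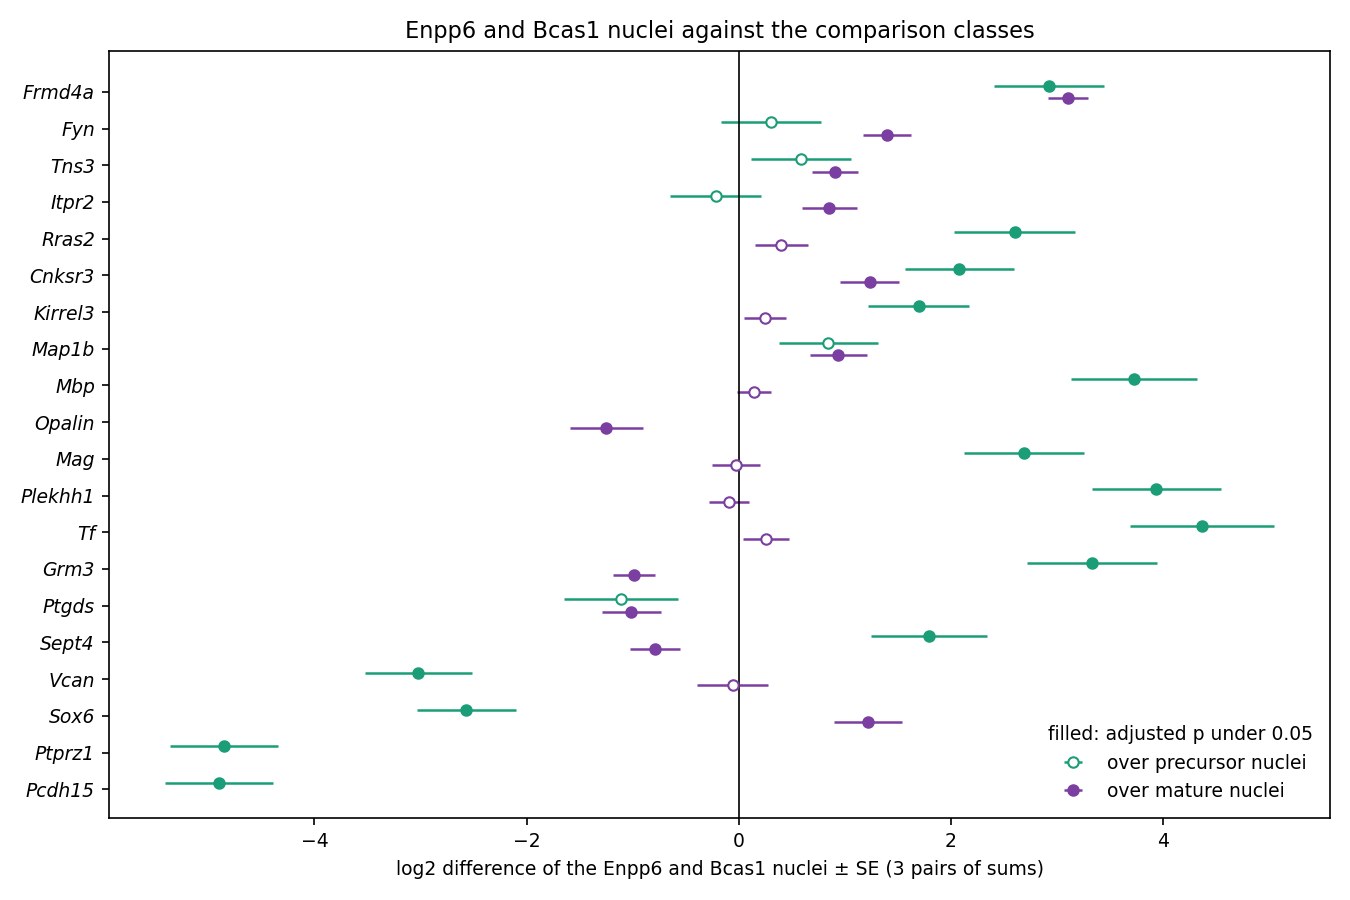
Log2 difference of the Enpp6 and Bcas1 nuclei from precursor nuclei (green) and from mature nuclei (purple) for 20 genes, with SE from 3 pairs of library sums; filled points have an adjusted p under 0.05 in edgeR's quasi-likelihood test. Mbp and Mag are higher than in precursor nuclei and near 0 against mature nuclei; Fyn and Tns3 are higher than in mature nuclei. Both comparisons share the same sums of the Enpp6 and Bcas1 nuclei.

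Several other gene groups held few genes that could be tested. Of 7 transcription factors tested against precursor nuclei, 1 rose (St18) and 4 fell (Sox5, Sox6, Nfia and Nfib). Of all genes tested there, 18.2% rose and 17.8% fell. Olig1 had no UMI in the 178 nuclei, Olig2 had 9 and Sox10 had 31, too few to compare their levels. The part of depth or of the gene annotation in these low counts was not tested. None of 25 cell cycle genes in the files reached 20 UMIs. In the list of HGF receptor signalling, 1 of 4 genes tested against precursor nuclei rose, beside 18.2% of all genes. It was the phosphatase Ptpn11 (1.94 ± 0.60, edgeR adjusted p = 0.0097). None of 6 passed against mature nuclei. Of lipid synthesis genes none of 7 passed against mature nuclei.

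The share of nuclei with Enpp6 and Bcas1 was 4.84% in the untreated library (exact 95% binomial interval 3.99 to 5.81%), 1.94% in the scaffold library (1.40 to 2.61%) and 2.98% in the HGF scaffold library (1.97 to 4.31%). With 1 library per group there is no replicate check and no test, and treatment, animal and library cannot be told apart. The scaffold share was 0.400 times the untreated share (0.273 to 0.576), the HGF scaffold share 0.616 times (0.388 to 0.945), and the HGF scaffold share 1.54 times the scaffold share (0.912 to 2.55). The HGF scaffold over untreated ratio turned to 1.10 when none of the 8 limiting genes was allowed. The HGF scaffold over scaffold ratio was 0.613 (0.442 to 0.838) with no limit and 2.95 (1.33 to 6.66) with none of the 8 allowed. It was 1.04 (0.619 to 1.73) over the nuclei that met the limit. Nuclei with Itgam made up 8.30% of the untreated, 41.6% of the scaffold and 34.0% of the HGF scaffold library, and their part in the shares was not tested. In myeloid nuclei Enpp6 had a UMI in 34.1% of the untreated, 17.4% of the scaffold and 5.80% of the HGF scaffold library, with median depths of 4629, 3549 and 1854 UMIs. That background differed between the libraries, and its part in the shares was not tested. Within the 3 oligodendrocyte lineage classes together the members made up 65.7% (57.9 to 72.8%), 48.8% (37.9 to 59.9%) and 46.6% (33.3 to 60.1%). The precursor and mature classes hold no Enpp6 by their rules, and 87 of the 178 members had a single UMI of it. The members' median depth was 2593, 2162 and 1263 UMIs. The part of depth in these shares was not tested. Counted over all nuclei, the members with 1% or more of Frmd4a were 0.710% of the untreated library (0.407 to 1.15%). They were 0.323% of the scaffold library (0.130 to 0.664%) and 0.773% of the HGF scaffold library (0.311 to 1.59%), and these intervals overlap.

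**Figure D5:**
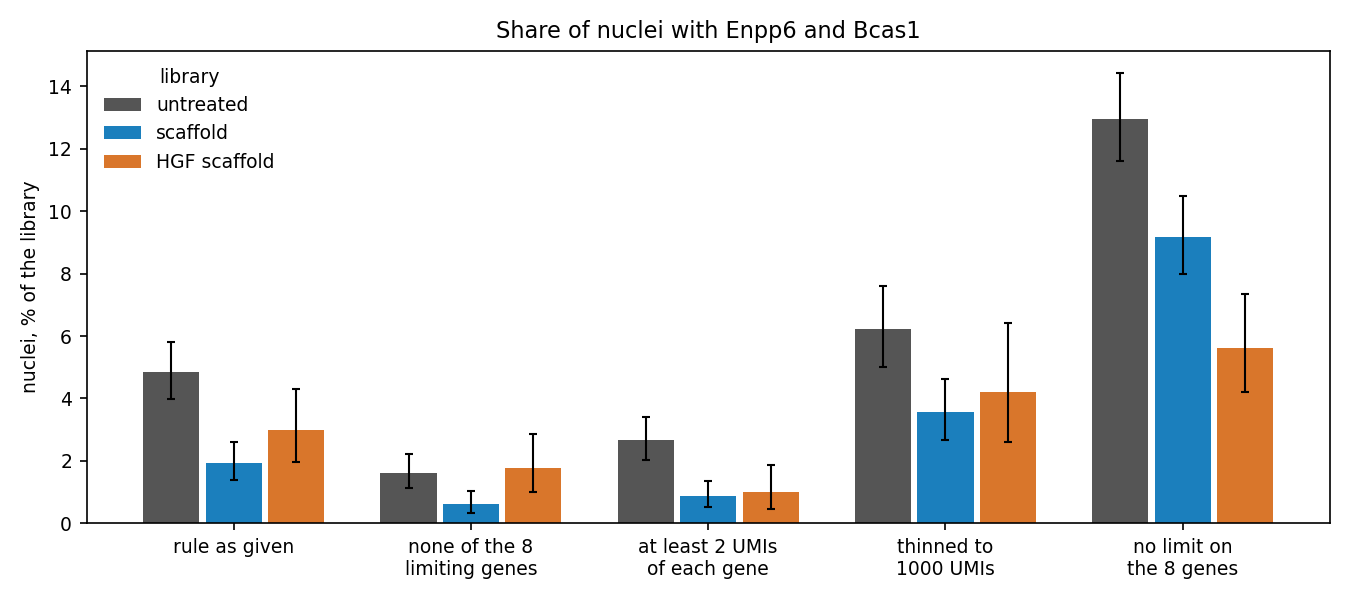
Share of nuclei with Enpp6 and Bcas1 (y axis, percent of the library, from 0) by library under the rule as given and 4 other settings, with exact 95% binomial intervals. The untreated share is above the scaffold share in each setting shown, while the place of the HGF scaffold library changes with the limit on other lineages.

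Expression was compared between treatments only with both implant libraries pooled, since the scaffold and HGF scaffold libraries gave fewer than 50 nuclei each. This pooling was chosen after the counts were seen and carries no test. Of 3999 genes with at least 20 UMIs, 6.45% were past 2-fold higher and 4.83% past 2-fold lower in the implant members. The interval of the ratio lay above 1 for 8.25% and below 1 for 6.18%. Genes of antigen presentation and lysosomes were higher: 6 of 10 measured in that list were past 2-fold, and its median log2 difference was 1.36 against 0.05 over all genes. Apoe, a lipid carrier, was at 286 CPM in the untreated, 1114 in the scaffold and 548 in the HGF scaffold members (ratio 3.34, interval 2.54 to 4.40). B2m, the light chain of class I molecules, was at 82.2, 256 and 130, and the tetraspanin Cd63 at 30.4, 184 and 52.2. Both implant values were above the untreated value for these 3. RT1-A2 (30.4, 112 and 26.1) and Ctsb (113, 348 and 104), a class I heavy chain and a lysosomal protease, were higher in the scaffold and not in the HGF scaffold members.

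Myeloid genes moved the same way. Spp1, osteopontin, was at 12.2, 562 and 104 CPM, a ratio of 35.6 (13.2 to 135), and Lyz2, Adgre1, Aoah and Msr1 were also among the 10 genes whose interval lay farthest above 1. Summed over 14 myeloid markers, the members held 551, 2218 and 1200 CPM and all nuclei of those libraries 1363, 5344 and 6883. In the HGF scaffold members 3 of the 14 were at 0. The part of myeloid RNA in the antigen and lysosome genes was not tested. Of 18 myelin genes measured, 1 was past 2-fold higher and none lower, near the 6.45% and 4.83% of all genes. The interval lay above 1 for 1 of them and below 1 for 2, beside 8.25% and 6.18% of all genes. Mbp had a ratio of 0.921, with an interval from 0.847 to just above 1. Grm3 was at 1577, 930 and 652 CPM (ratio 0.540). Of 8 precursor genes measured, 2 had an interval above 1 (Vcan, ratio 2.08, and Sox6, 1.88) and none below. Of 15 early genes 3 lay above 1 (Fyn at 1.34, Tns3 at 1.26 and Man1a1) and 1 below (Cnksr3 at 0.643). Over all nuclei of the untreated, scaffold and HGF scaffold library, Tns3 was at 529, 1047 and 1146 CPM. Fyn was at 701, 734 and 820 CPM there. The part of myeloid RNA in the ratios of these early genes was not tested.

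Of the 10 genes whose interval lay farthest below 1 in the implant members, 7 were Mybpc1, Trdn, Xirp2, Myh7, Tnni1, Esrrg and Tp63, and the first 5 are genes of the muscle contractile apparatus. A single untreated nucleus of 5784 UMIs held 85 of the 86 UMIs of Mybpc1, 45 of 46 of Trdn, 40 of 40 of Xirp2 and 241 of 275 of Esrrg. It had 1 UMI of Enpp6 and 2 of Bcas1. Without it, 4.42% of genes were past 2-fold lower, against 4.83% with it. The other 3 were Pla2g16 (ratio 0.216), RGD1306739 (0.212) and Slc2a13 (0.234), a myo-inositol transporter.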

How the data were processed

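Nuclei were isolated with a commercial kit, captured in 10x Genomics 3′ droplets and sequenced, per the labels' protocols. The deposited files hold UMI counts per gene and nucleus, as raw counts. The authors' tool was Cell Ranger 6.0.1, as the submitters' processing notes give it. The genome build and annotation are not given in the sources used here. Each file listed 17328 genes. Library totals were 5953189, 5791715 and 1450757 UMIs for the untreated, scaffold and HGF scaffold library, and barcodes held at least 500, 500 and 501 UMIs.

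All deposited barcodes were used, and no doublet caller was run. The limit on genes of other lineages and a setting without the 10% deepest nuclei stand in its place. Counts were summed per library and class, genes were filtered with filterByExpr, and sums were tested with edgeR 4.0.16 (TMM, quasi-likelihood, library as a block). The library pairs the sums, since each library gives both classes. P-values rest on the spread of the paired sums after the library block, which edgeR estimates with information shared across all genes. They do not measure the spread between nuclei or between animals, and the 3 libraries differ in treatment. On data simulated for the precursor comparison (724 genes), the edgeR fit found 43.8% of 2-fold and 100% of 4-fold changes. For the mature comparison (1880 genes) it found 40.9% and 95.5%. Both simulations used the same fixed dispersion (spread beyond counting error) and no library effect. The dispersion estimated from the data was 0.0795 for the precursor and 0.0229 for the mature comparison, so recovery in the data may differ. CPM values (summed UMIs per 1000000) carry 95% Poisson intervals, computed exactly, and shares carry Clopper-Pearson ones; ratios have exact conditional intervals. These cover counting error only. Thinning to 1000 UMIs, DESeq2 1.42.0 and the other settings are in the closing section.

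Members, gene lists and classes were chosen with earlier results of these data known. Named genes were the marker genes and genes of the rule, up to 4 per list (the highest and lowest folds among those past the threshold) with stage markers, the 10 genes with the largest change against both classes in each direction, and the 10 clearest per direction between treatments. Of 550 list entries 515 were found among the files' symbols, 7 of them by older symbols. Lhfpl3, which the precursor rule also names, was not among those symbols. Promoters came from RefSeq (GRCr8). A gene of the myelin list is not reported by name here.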

Additional observations from a re-analysis of the deposited data

How the results depend on the processing

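Against mature nuclei the counts of genes higher and lower, 48 and 39, fell to 7 and 2 with DESeq2 (669 genes with an adjusted p), 7 and 1 with no replicate block, 7 and 1 with none of the 8 limiting genes, 8 and 2 without the 10% deepest nuclei, 25 and 22 with Bcas1 required in the comparison classes, and 4 and 8 in members with Mog and Mobp. They were 30 and 41 in members with under 1% of UMIs in Frmd4a, 41 and 23 with no filter on low counts, and 42 and 18 with at least 2 UMIs of each defining gene. Leaving out each library in turn gave 6 to 32 higher and 5 to 26 lower; the lowest values were without the untreated library, and without the HGF scaffold library the counts were 10 and 7. Of 368 values for the 30 named genes past this threshold, 170 stayed past it in the same direction, 193 fell short and 5 reversed. The reversed values were Fyn (-0.00063) and Tns3 (-0.050) in members with Mog and Mobp, Cdyl (-0.14) and Frmd4a (-0.89) in members with under 1% of Frmd4a, a setting that removes nuclei by Frmd4a from the members only, and Tenm2 (0.32) without the scaffold library; its values without a library ranged from -1.12 to 0.32. Rras2 (-1.82) and Kirrel3 (-1.65), not past the threshold before, also reversed in that setting; both were among the genes highest in the removed nuclei.

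Against precursor nuclei 138 higher and 135 lower became 253 and 157 with no filter on low counts, 65 and 85 with none of the limiting genes, 272 and 237 with the wider precursor rule, and 141 and 142 with no replicate block. Leaving out each library gave 89 to 143 higher and 101 to 186 lower. Fyn reversed (-0.68) with the wider rule. Of 647 values for the 56 named genes past the threshold, 556 stayed past it and none reversed.

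The ratio of HGF scaffold to untreated shares reversed to 1.10 with none of the limiting genes and was 0.373 with at least 2 UMIs of each gene. With no limit on the 8 genes the scaffold share was 0.708 times the untreated share, and the HGF scaffold share 0.613 times the scaffold share; the last ratio was 2.95 with none of the 8. Thinning to 1000 UMIs dropped shallower nuclei and left 1433, 1491 and 475, and the shares were 6.21%, 3.55% and 4.21%. The scaffold library then gave 53 members, against 42 by the rule. The ratio of HGF scaffold to untreated shares was 0.678 after thinning, with an interval that spans 1 (0.395 to 1.11). It was 0.749 (0.459 to 1.18) when the limit was read as at most 1 UMI over the 8 genes. In the pooled implant comparison the share of genes past 2-fold higher was 5.58% when scaled by the median ratio, 2.37% with at least 50 UMIs, 5.65% with none of the limiting genes and 5.65% without the deepest nuclei. The share past 2-fold lower was 6.08% with nuclei weighted equally, 2.26% with at least 50 UMIs, 6.96% with none of the limiting genes and 6.45% in members with under 1% of Frmd4a. The cause of these changes was not tested, other than that fewer nuclei or genes enter several of them. Between treatments no paired analysis was possible because each has 1 library.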
